A study of Mus musculus with 4 samples.

Results

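The cells described here are CD4+ T cells of the mouse colon that carried transcripts of both Foxp3, which directs the development of regulatory T cells (Tregs), and Gzmb, which encodes the granule protease granzyme B. They were chosen by these transcripts alone, as barcodes with at least 1 count of each gene among those with at least 500 counts, at least 200 detected genes and under 20% mitochondrial counts. A total of 106 of 1050 kept cells met the rule, or 10.1% (exact 95% interval 8.34 to 12.1). They were compared with the 226 kept cells that had at least 1 count of Foxp3 and 0 counts of Gzmb, called Foxp3+ Gzmb- cells below. The levels of Foxp3 and Gzmb follow from the rule and are given only as a description.

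The study profiled T cells from the lamina propria of the colon, a layer of connective tissue below the gut epithelium, by inDrops, in which single cells are captured in droplets with barcoded reverse transcription primers. All cells came from male B6 mice aged 6 weeks and passed a sort on CD45, TCRb and CD4. A single group, Btheta_colon, holds 4 samples that share 1 library name, and the labels name no further treatment or genotype. The table of 1985 barcodes carries no sample, so it was handled as 1 sample, without replicates and without tests. Every interval below is a 95% interval that covers counting error only and not the spread between mice. Intervals of levels and ratios rest on counts summed over cells, so they also leave out the spread between cells.

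Regulatory T cells restrain immune responses, and those of the colon meet food and microbial antigens in the tissue. As background, they act through several routes, which include the cytokine IL-10, the inhibitory receptor CTLA-4, uptake of IL-2 and, in some settings, granzyme B. Granzyme B is packed into granules on the proteoglycan serglycin, is matured by the protease cathepsin C, and in cytotoxic lymphocytes enters target cells through pores made by perforin. A subset of tissue Tregs that depends on the factor GATA3 instead carries the IL-33 receptor and the repair factor amphiregulin.

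The members were a little deeper than their comparison. They held 172842 counts in all, with a median of 1381 counts per cell (521 to 3943) and 708.5 detected genes, against 341841 counts, a median of 1258 (507 to 7500) and 640 genes in Foxp3+ Gzmb- cells. Mitochondrial counts had a median of 3.81% in members and 4.29% in Foxp3+ Gzmb- cells. Scrublet called 2 members and 3 Foxp3+ Gzmb- cells as doublets, and no barcode occurred more than 1 time in the table. For a gene with 0 counts over all members, this depth allows a level of up to 17.4 CPM, the summed counts of a gene scaled to a total of 1000000 counts in those cells.

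The counts of the rule genes were low in single cells. Gzmb had 426 counts in the members, with a median of 3 and a range of 1 to 19 per cell. The 35 members with 1 count of Gzmb lie just inside the rule, 15 had 2 counts and 56 had 3 or more, while the Foxp3+ Gzmb- cells just outside had 0 by definition. Foxp3 stood at 1261 CPM (218 counts, 1 to 6 per cell) in members and 1387 CPM (474 counts, 1 to 9 per cell) in Foxp3+ Gzmb- cells. Of the 935 barcodes outside the cell filter, 1 carried both transcripts and had 392 counts. Foxp3 lies on chromosome X (7573644 to 7595245, plus strand) and Gzmb on chromosome 14 (56258838 to 56262260, minus strand) in mm10.

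Gzmb was thus found in 31.9% of all 332 cells with Foxp3 (26.9 to 37.2) and in 11% of the 718 cells without it (8.81 to 13.5). Of all 185 cells with Gzmb, 57.3% had Foxp3 (49.8 to 64.5). In a gate of 64 naive-like cells, which should lack granzyme B and had at least 2 genes of naive T cells and no Foxp3, 1 cell held Gzmb (1.56%, 0.0396 to 8.40) at a median depth of 1429 counts. Thinning each cell to 500 counts left Gzmb and Foxp3 together in fewer cells, and the share among Foxp3+ cells was then 23%.

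**Figure D1:**
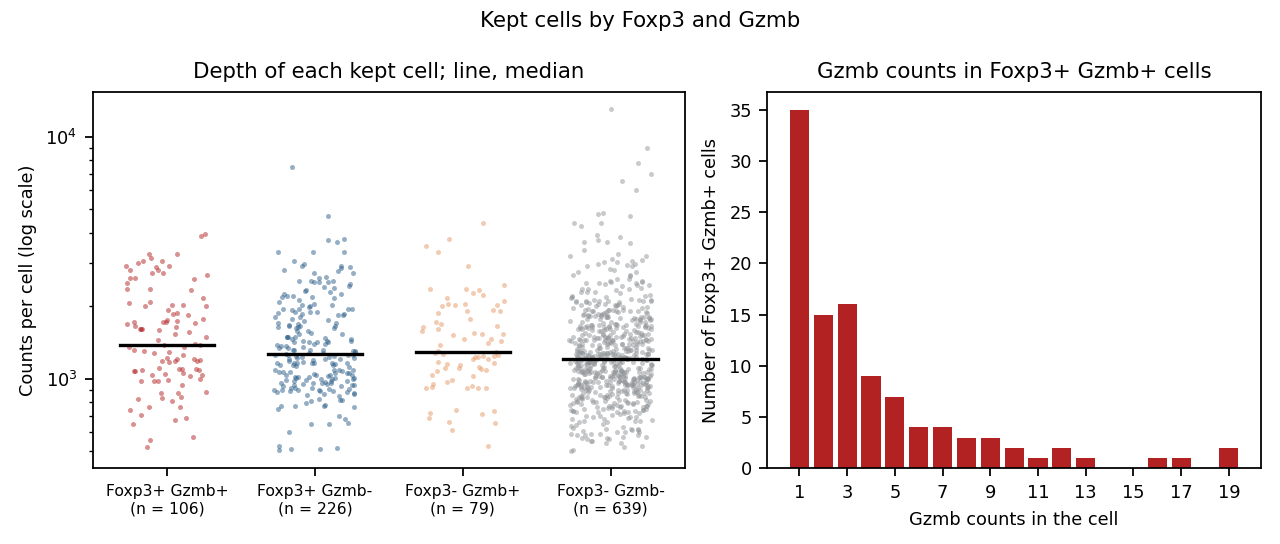
Counts per cell (log axis) in members, Foxp3+ Gzmb-, Foxp3- Gzmb+ and Foxp3- Gzmb- cells, and the number of members by their count of Gzmb. Each point is a cell and each line the median, which is 1381 counts in members and 1258 in Foxp3+ Gzmb- cells, and 35 of 106 members had a single count of Gzmb.

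The sorted identity held in these cells. The 14 genes of T cell identity summed to 9691 CPM (9232 to 10166) in members and 9864 CPM (9534 to 10203) in Foxp3+ Gzmb- cells, and all 14 were detected in members. The T cell receptor constant gene Trac was detected in 72.6% of members and 73.9% of Foxp3+ Gzmb- cells, and Cd4 in 48.1% and 38.1% of them. Cd3e, a chain of the receptor complex, was the 1 identity gene past 1.5-fold, at 133 CPM in members and 249 CPM in Foxp3+ Gzmb- cells (log2 ratio -0.90, -1.63 to -0.22). Markers of other cell types, which the sort should remove, were given by their counts. The 7 markers of CD8 and intraepithelial T cells summed to 3 counts in 2 members and 33 counts in 14 Foxp3+ Gzmb- cells, and 5 of the 7 were at 0 in members. The 10 markers of innate lymphoid and NK cells gave 1 count in members and 13 in Foxp3+ Gzmb- cells, the 10 epithelial markers 2 and 31, the 12 mast cell and basophil markers 2 and 8, the 13 myeloid markers 17 and 73, and the 10 stromal and endothelial markers 10 and 24. B and plasma cell markers were more frequent, in 44.3% of members, and summed to 613 CPM in members and 582 CPM in Foxp3+ Gzmb- cells, of which Ighm gave 81 of 106 counts in members and 173 of 199 in Foxp3+ Gzmb- cells. Plasmacytoid dendritic cell markers were in 17.9% of members and stood at 197 CPM in members and 187 CPM in Foxp3+ Gzmb- cells. The part of these other markers in the differences below was not tested beyond leaving out cells with at least 3 of the epithelial, stromal, myeloid or B genes (3 members and 9 Foxp3+ Gzmb- cells).

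The members' label as regulatory T cells was checked on genes that the rule did not use, in a gate that has Foxp3 on both sides. The Treg core signature was nearly equal in sum, at 11525 CPM (11024 to 12042) in members and 11549 CPM (11192 to 11915) in Foxp3+ Gzmb- cells. Of its 20 genes with at least 20 counts, 3 had a ratio interval above 0 and 6 below. Tnfrsf4 and Ikzf4, given below, were among the 6. Il2ra, the high-affinity IL-2 receptor chain, stood at 318 CPM in members and 287 CPM in Foxp3+ Gzmb- cells (0.15, -0.35 to 0.64). Ikzf2, which encodes Helios, stood at 926 CPM in members and 857 CPM in Foxp3+ Gzmb- cells (0.11, -0.18 to 0.39). Helios was detected in 51.9% of members, 49.1% of Foxp3+ Gzmb- cells and 6.25% of the naive-like gate. In Foxp3- Gzmb- cells Il2ra stood at 131 CPM and Ikzf2 at 352 CPM, below both. The core signature summed to 5569 CPM in Foxp3- Gzmb- cells but to 10876 CPM in Foxp3- Gzmb+ cells. Its sum therefore does not set members apart from other cells with Gzmb.

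Against this shared base, summed counts gave members more transcript of IL-10, of several chemokine receptors and of galectin and S100 genes. They gave less of Gata3 with its tissue-repair partners and of genes induced by T cell receptor signals. No named repair or receptor-signal gene kept an interval below 0 both with counts capped at 1 per cell and with thinned counts. Among the 1790 genes with at least 50 counts over both sides, 372 (20.8%) differed by at least 1.5-fold, 190 (10.6%) higher in members and 182 (10.2%) lower. The median log2 ratio of all 1790 genes was 0.02. The interval left out 0 for 131 of the 190 and for 108 of the 182. Such shares are the background for the lists below, in which genes with at least 20 counts were measured. At that minimum 35.1% of 4148 genes differed by at least 1.5-fold: 16.0% were at least 1.5-fold higher in members and 19.1% at least 1.5-fold lower, with a median of -0.02.

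**Figure D2:**
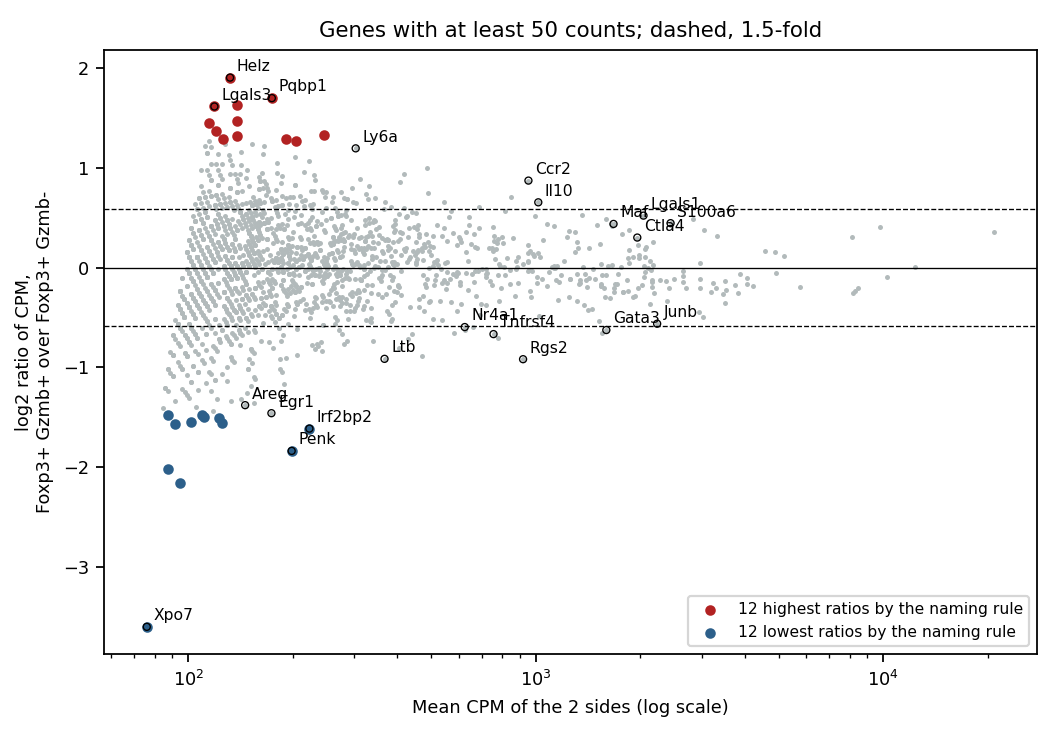
Log2 ratio of members over Foxp3+ Gzmb- cells against mean level (CPM, log axis) for 1790 genes with at least 50 counts, with named genes labelled. Ly6a, Lgals3, Il10 and Ccr2 lie above 0, and Gata3, Areg, Penk, Rgs2 and Ltb lie below it.

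Il10, the gene of the anti-inflammatory cytokine IL-10, was higher in members. It had 215 counts in 61 members (57.5% of them) and 270 counts in 85 Foxp3+ Gzmb- cells (37.6%), with 1 naive-like cell of 64 as background (1.56%). This gave 1244 CPM (1083 to 1422) in members and 790 CPM (698 to 890) in Foxp3+ Gzmb- cells, a log2 ratio of 0.66 (0.39 to 0.92). After thinning to equal depth, 34.0% of members (25.0 to 43.8) and 21.7% of Foxp3+ Gzmb- cells (16.5 to 27.6) had a count. The ratio was 0.51 (0.01 to 1.0) with each cell counted at most 1 time per gene and 0.89 (0.43 to 1.34) in thinned counts, so Il10 was higher in members on each of these 3 scales. Maf, a factor that drives Il10 in T cells, stood at 1927 CPM in members and 1422 CPM in Foxp3+ Gzmb- cells (0.44, 0.23 to 0.64), and its interval with capped counts ran from -0.22 to 0.56.

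Other suppressor genes lay on both sides of 0. Of 14 measured suppressor cytokines and surface inhibitors, 3 were at least 1.5-fold higher in members and 5 at least 1.5-fold lower; the median was -0.17, while the summed level was higher (7660 CPM in members and 6471 CPM in Foxp3+ Gzmb- cells, log2 ratio 0.24, 0.14 to 0.34). Ctla4 stood at 2164 CPM in members and 1755 CPM in Foxp3+ Gzmb- cells (0.30, 0.11 to 0.49). Lag3, an inhibitory receptor that binds MHC class II, had 18 counts in 14 members and 16 counts in 11 Foxp3+ Gzmb- cells (1.15, 0.10 to 2.22). Penk, which encodes the precursor of enkephalin peptides, had 15 counts in 7 members and 106 in 23 Foxp3+ Gzmb- cells (-1.84, -2.72 to -1.05). Ebi3, a subunit of IL-35, stood at 52.1 CPM in members and 120 CPM in Foxp3+ Gzmb- cells (-1.20, -2.43 to -0.14). Nt5e, the ectoenzyme that makes adenosine, stood at 69.4 CPM in members and 155 CPM in Foxp3+ Gzmb- cells (-1.16, -2.20 to -0.24), but at 0.36 in thinned counts.

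**Figure D3:**
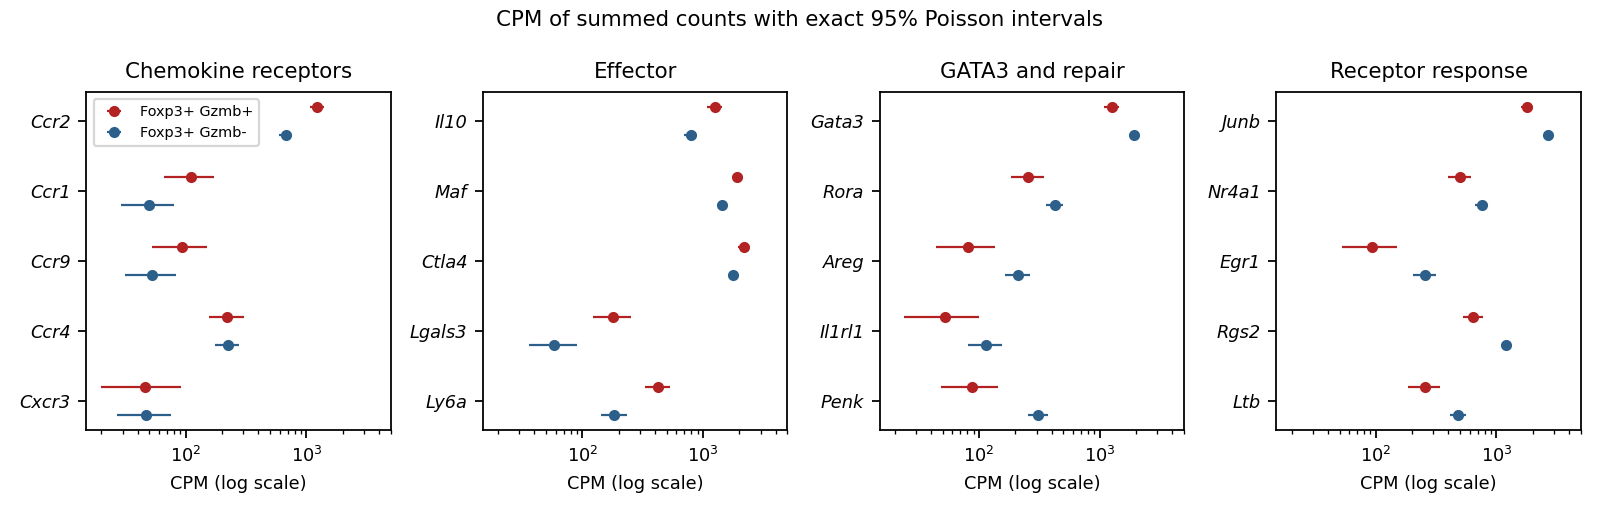
Levels of named genes in CPM (log axis) with exact 95% Poisson intervals in members and Foxp3+ Gzmb- cells. Il10 stands at 1244 CPM in members and 790 CPM in Foxp3+ Gzmb- cells, and Gata3 at 1255 CPM in members and 1937 CPM in Foxp3+ Gzmb- cells.

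Chemokine receptors, which guide T cells within and between tissues, were higher in members in sum. Of 10 measured chemokine receptors, 5 were at least 1.5-fold higher and 0 at least 1.5-fold lower, with 3 intervals above 0; their median was 0.61 and their sum 2887 CPM (2639 to 3152) in members and 1960 CPM (1814 to 2114) in Foxp3+ Gzmb- cells. Ccr2, the receptor for CCL2, was the most abundant of these receptors. It had 213 counts in 72 members (67.9%) and 230 counts in 104 Foxp3+ Gzmb- cells (46.0%), which is 1232 CPM in members and 673 CPM in Foxp3+ Gzmb- cells (0.87, 0.60 to 1.15). Thinned cells held it in 43.4% of members and 27.9% of Foxp3+ Gzmb- cells, and 6.25% of unthinned naive-like cells held it. Its ratio was 0.45 with capped counts, where the interval reached 0. Ccr1 had 19 counts in members and 17 in Foxp3+ Gzmb- cells (1.14, 0.12 to 2.18), and Ccr9, the gut-homing receptor, 16 and 18 (0.81, -0.25 to 1.87). Ccr4 (-0.02), a receptor of type 2 and skin-homing T cells, and Cxcr3 (-0.02), a receptor of type 1 cells, lay near 0. Some of these receptor genes are similar in sequence, and how reads that match several of them were counted was not stated in the sources used here.

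Galectin, annexin and S100 genes, which many effector and tissue T cells carry, were higher by smaller folds. Of 14 measured members of this list, 13 had a ratio above 0, against 49.4% of all 4148 genes, while 2 reached 1.5-fold higher and 0 reached 1.5-fold lower. The sum was 19168 CPM (18521 to 19832) in members and 14460 CPM (14060 to 14869) in Foxp3+ Gzmb- cells, and the median 0.40. S100a6, a calcium-binding protein gene, stood at 2818 CPM in members and 2068 CPM in Foxp3+ Gzmb- cells (0.45, 0.28 to 0.61). Lgals1, which encodes galectin-1, stood at 2407 CPM in members and 1676 CPM in Foxp3+ Gzmb- cells (0.52, 0.34 to 0.71). Lgals3, which encodes galectin-3, was the list's highest ratio, with 31 counts in 18 members and 20 counts in 16 Foxp3+ Gzmb- cells (1.62, 0.76 to 2.50). Capping reduced the list median to 0.11, and Lgals1 to -0.0067. The ratio of Lgals3 was 1.15 (0.10 to 2.22) with capped counts.

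Gata3 and the genes of GATA3-dependent tissue-repair Tregs were lower in members. Of 12 measured genes, 0 were at least 1.5-fold higher and 7 at least 1.5-fold lower, with a median of -0.68 and a sum of 3703 CPM (3421 to 4001) in members and 4929 CPM (4697 to 5170) in Foxp3+ Gzmb- cells. The interval lay below 0 for 4 of the 12 and above 0 for 0, and the median was -0.28 with capped counts. The 15 members with 2 counts of Gzmb went the other way, with a sum of 6419 CPM (5386 to 7593). Gata3 itself had 217 counts in 59 members and 662 counts in 142 Foxp3+ Gzmb- cells, which is 1255 CPM (1094 to 1434) in members and 1937 CPM (1792 to 2090) in Foxp3+ Gzmb- cells (-0.63, -0.85 to -0.40). The share of cells with a count differed less, at 55.7% of members and 62.8% of Foxp3+ Gzmb- cells (25.0% of naive-like cells), and 34.9% and 43.8% of them after thinning. With capped counts its ratio was -0.28 (-0.75 to 0.16).

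Areg, which encodes amphiregulin, had 14 counts in 9 members and 72 counts in 40 Foxp3+ Gzmb- cells (-1.38, -2.32 to -0.54). Il1rl1, which encodes the IL-33 receptor ST2, had 9 counts in 6 members and 39 counts in 25 Foxp3+ Gzmb- cells (-1.13, -2.36 to -0.06). Rora, a nuclear receptor gene of tissue Tregs, stood at 255 CPM in members and 424 CPM in Foxp3+ Gzmb- cells (-0.74, -1.26 to -0.24). In contrast, Klrg1, a receptor for E-cadherin that marks terminally differentiated effector cells, stood at 706 CPM in members and 772 CPM in Foxp3+ Gzmb- cells (-0.13, -0.45 to 0.19). Klrg1, Ikzf2 and Areg are each in more than 1 list.

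Genes that T cell receptor signals induce within minutes to hours were also lower in members. Of 18 measured genes, 1 was at least 1.5-fold higher and 7 at least 1.5-fold lower, with a median of -0.49. They summed to 12121 CPM (11607 to 12651) in members and 15569 CPM (15153 to 15993) in Foxp3+ Gzmb- cells. The interval lay below 0 for 10 of the 18 and above 0 for 1, and the median was -0.27 with capped counts. The 15 members with 2 counts of Gzmb went the other way, with a sum of 21004 CPM (19098 to 23050). Junb, an AP-1 subunit, stood at 1805 CPM in members and 2665 CPM in Foxp3+ Gzmb- cells (-0.56, -0.75 to -0.37). Nr4a1, a nuclear receptor gene used to read receptor signals, stood at 498 CPM in members and 752 CPM in Foxp3+ Gzmb- cells (-0.60, -0.97 to -0.24). Egr1 had 16 counts in members and 87 in Foxp3+ Gzmb- cells (-1.46, -2.33 to -0.68). Dusp2, a phosphatase gene that restrains MAP kinases, was the 1 gene at least 1.5-fold higher, at 156 CPM in members and 70.2 CPM in Foxp3+ Gzmb- cells (1.15, 0.31 to 2.01). The dissociation stress list, whose genes respond to tissue digestion, also had a negative median (-0.29, 0 of 12 at least 1.5-fold higher and 2 lower). Its sum was lower in members too (-0.21, -0.31 to -0.12). After thinning its median was 0.03, and that of the receptor-induced list -0.27. Fos, Jun, Junb and Ier2 are in both lists. The part of dissociation stress in the lower receptor-induced genes was not tested.

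Receptors of the Treg core signature differed one by one. Of 20 measured genes, 1 was at least 1.5-fold higher and 4 at least 1.5-fold lower, with a median of -0.16. Tnfrsf4, which encodes the costimulator OX40, stood at 584 CPM in members and 927 CPM in Foxp3+ Gzmb- cells (-0.67, -1.00 to -0.34). Ikzf4, which encodes Eos, had 8 counts in members and 44 in Foxp3+ Gzmb- cells (-1.48, -2.77 to -0.37), but its ratio was 0.0079 among cells with at least 2 counts of Foxp3. Icos, a costimulator, stood at 2129 CPM in members and 1820 CPM in Foxp3+ Gzmb- cells (0.23, 0.04 to 0.41), and Capg, an actin-capping protein gene, at 683 CPM in members and 459 CPM in Foxp3+ Gzmb- cells (0.57, 0.21 to 0.93). Effector Treg factors and receptors had 0 of 16 genes at least 1.5-fold higher and 4 at least 1.5-fold lower (median -0.15).

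Perforin and the other granzymes had few transcripts in members. Prf1, which encodes perforin, had 0 counts in all 1985 barcodes, so its level in members is given only by the floor of 17.4 CPM. Gzma had 3 counts in 2 members and 6 counts in 2 Foxp3+ Gzmb- cells, and Gzmc, Gzmk and Gzmm had 0 counts in members. Reads of Gzmc and its close relatives could be confused with Gzmb by sequence, and how such reads were counted was not stated in the sources used here. The 14 measured genes of granule packaging, activation and release had a median of -0.28, with 3 at least 1.5-fold higher and 4 lower. Srgn, which encodes serglycin, was abundant and similar, at 2401 CPM in members and 2606 CPM in Foxp3+ Gzmb- cells (-0.12, -0.29 to 0.05). Ctsc, which encodes the cathepsin that activates granzymes, was higher, with 27 counts in 16 members and 19 counts in 15 Foxp3+ Gzmb- cells (1.49, 0.59 to 2.42). Nkg7, a cytotoxic granule protein gene, had 31 counts in members and 34 in Foxp3+ Gzmb- cells (0.85, 0.10 to 1.60), but a thinned ratio of -0.023.

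Serpinb9, which encodes an inhibitor that shields cells from their own granzyme B, was scarce. It had 0 counts in members (floor of 17.4 CPM) and 10 counts in 4 Foxp3+ Gzmb- cells. Serpinb6a, another serpin gene, had 20 counts in members and 47 in Foxp3+ Gzmb- cells (-0.25, -1.08 to 0.53). The 5 measured granzyme inhibitors and death ligands had a median of -0.60, with 0 at least 1.5-fold higher and 3 lower. Ltb, which encodes lymphotoxin beta, was the one with an interval below 0, at 255 CPM in members and 480 CPM in Foxp3+ Gzmb- cells (-0.91, -1.43 to -0.43). It was detected in 23.6% of members, 40.3% of Foxp3+ Gzmb- cells and 35.9% of naive-like cells. Its capped ratio was -0.88 (-1.58 to -0.23).

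Most adhesion genes lay within 1.5-fold. Of 15 measured genes of integrins, retention and egress, 0 were at least 1.5-fold higher and 3 at least 1.5-fold lower (median -0.09). Itga4, the alpha 4 chain of the gut-homing integrin, stood at 116 CPM in members and 260 CPM in Foxp3+ Gzmb- cells (-1.17, -1.95 to -0.46). Its partner chain Itgb7 stood at 526 CPM in members and 357 CPM in Foxp3+ Gzmb- cells (0.56, 0.15 to 0.96), though its capped and thinned intervals included 0. Rgs2, which damps G protein signals, was lower in members, at 636 CPM and in 34.0% of cells, against 1202 CPM and 47.3% of Foxp3+ Gzmb- cells (-0.92, -1.23 to -0.61). Among matrix proteases, Mmp9, a gelatinase gene, stood at 191 CPM in members and 120 CPM in Foxp3+ Gzmb- cells (0.67, -0.04 to 1.37), and Adam8, a membrane protease gene, had 15 counts in members and 9 in Foxp3+ Gzmb- cells (1.72, 0.43 to 3.09).

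The genes of highest and lowest ratio were mostly general cell genes of few counts. The 12 highest, at log2 ratios of 1.27 to 1.91, included Helz, Pqbp1, Naa15, Lgals3, Rftn1, U2af1, Tor1aip1, Mcm7, Ehd1, Psmd4 and Ccdc12. The 12 lowest, at -3.60 to -1.48, were Xpo7, Arl1, Snx17, Penk, Irf2bp2, Iscu, Cfdp1, Reep3, Zfas1, Tshz1, Ifrd1 and Ikzf4. Of 80 named genes whose interval left out 0, 12 kept an interval that left out 0 both with capped and with thinned counts. The 6 higher in members included Il10, Lgals3, Ly6a, Pqbp1 and U2af1, and the 6 lower were Ifrd1, Irf2bp2, Itga4, Ltb, Rgs2 and Xpo7. Ly6a, the Sca-1 antigen gene that interferons and activation induce, stood at 422 CPM in members and 184 CPM in Foxp3+ Gzmb- cells (1.2, 0.69 to 1.71). Irf2bp2, a transcriptional corepressor gene, stood at 110 CPM in members and 336 CPM in Foxp3+ Gzmb- cells (-1.61, -2.40 to -0.91).

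Foxp3+ cells were compared in the order of their Gzmb counts, 0, 1, 2 and 3 or more, in 226, 35, 15 and 56 cells with median depths of 1258, 1205, 1187 and 1625 counts. Ccr2 stood at 673, 889, 802 and 1501 CPM in that order, and Ly6a at 184, 348, 425 and 460 CPM. Il10 stood at 790, 1121, 1605 and 1231 CPM, and its interval in the cells with 1 count (852 to 1450) overlapped that in the cells with 0 counts (698 to 890). Gata3 stood at 1937, 1315, 2926 and 871 CPM and had no order, since the 15 cells with 2 counts had the highest level (2244 to 3752). The highest level of Ccr2 lay in the 56 cells with 3 or more counts, the group of greatest median depth. A part of depth in this was not tested. Ctla4 likewise peaked in the 15 cells, at 4059 CPM. Its levels at 1 count (1953 CPM, 1591 to 2373) and at 3 or more (1871 CPM, 1613 to 2159) overlapped that at 0 counts (1755 CPM, 1618 to 1901).

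**Figure D4:**
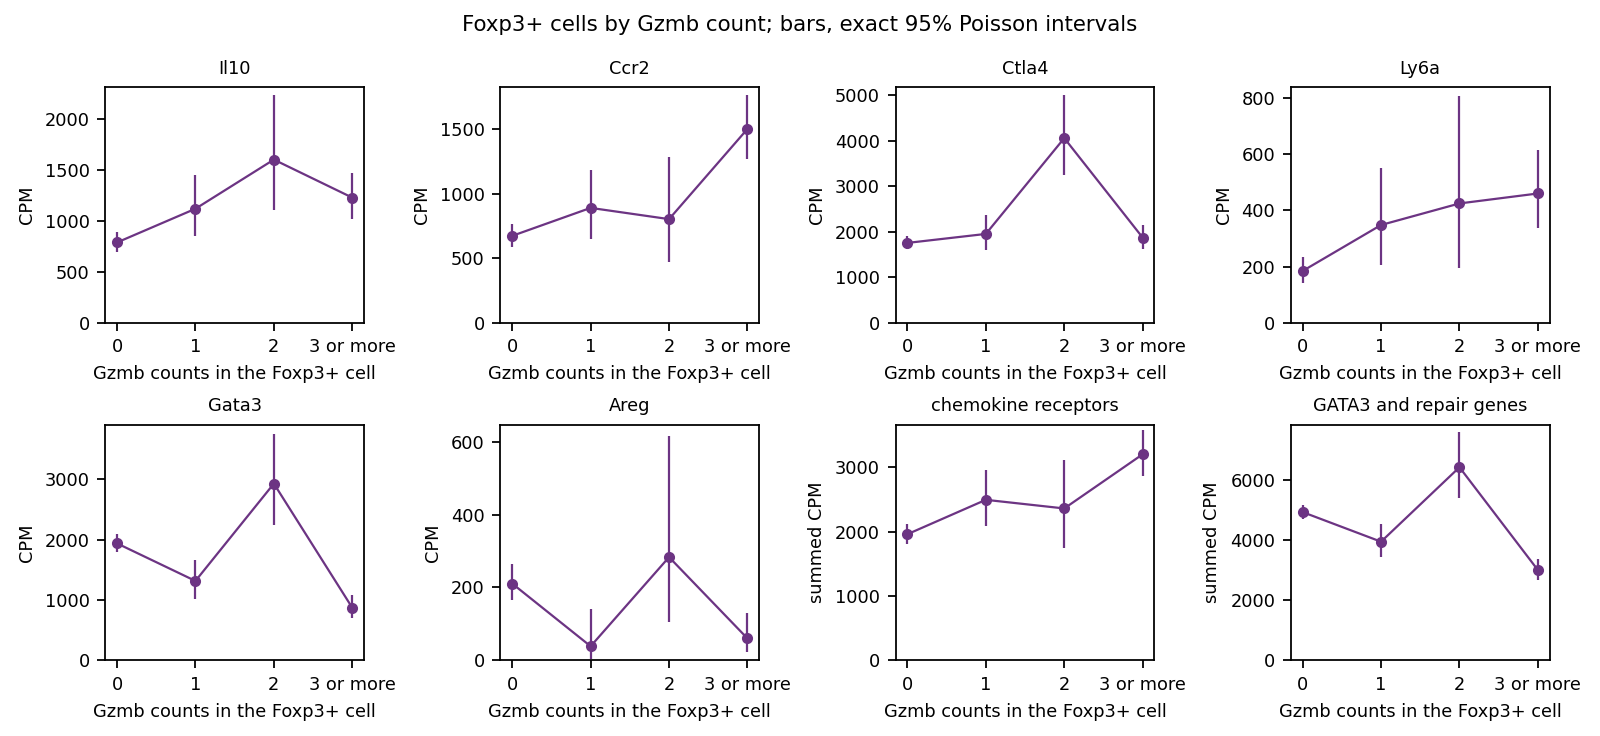
CPM with exact 95% Poisson intervals in Foxp3+ cells with 0, 1, 2 and 3 or more counts of Gzmb (226, 35, 15 and 56 cells). Ccr2 runs from 673 CPM at 0 counts to 1501 CPM at 3 or more, and Gata3 is 1937 CPM at 0 counts and 871 CPM at 3 or more, with 2926 CPM in the 15 cells between.

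Single members combined these transcripts to different extents. Of 11 genes followed (Il10, Klrg1, Gata3, Ikzf2, Ctla4, Icos, Ccr2, Mmp9, Penk, Areg and Nr4a1), members held 1 to 9, with a median of 5, and Foxp3+ Gzmb- cells 0 to 9, also with a median of 5. Il10, Ctla4 and Icos together were found in 49 of 106 members (46.2%, 36.5 to 56.2) and 51 of 226 Foxp3+ Gzmb- cells (22.6%, 17.3 to 28.6). Icos and Ccr2 together were found in 57.5% of members (47.6 to 67.1) and 35.0% of Foxp3+ Gzmb- cells (28.8 to 41.6). Taken singly, Icos was in 89 members and 172 Foxp3+ Gzmb- cells, and Ctla4 in 88 and 164. Ccr2 was in 72 and 104, and Il10 in 61 and 85. Whether the combinations exceed what these single shares give was not tested. Penk and Ccr2 were found together in 2 of the 7 members with Penk and in 4 of the 23 Foxp3+ Gzmb- cells with Penk.

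Within the members, Gata3 went with Helios and Klrg1. Of 59 members with Gata3, 38 had Ikzf2 (64.4%, 50.9 to 76.4) and 31 had Klrg1 (52.5%, 39.1 to 65.7), against 17 (36.2%, 22.7 to 51.5) and 13 (27.7%, 15.6 to 42.6) of the 47 members without Gata3. The members with Gata3 were deeper, with a median of 1607 counts against 1205, and the part of depth was not tested. Ctla4 was in 83.1% of members with Gata3 and 83.0% of those without, and Il10 in 55.9% and 59.6% of them. The Foxp3+ Gzmb- cells showed the same order for Ikzf2 and Klrg1, but not for Il10. In them Il10 was in 43.0% of cells with Gata3 (34.7 to 51.5) and 28.6% of those without (19.2 to 39.5). Ctla4 was in 74.6% (66.7 to 81.6) and 69.0% (58.0 to 78.7) of them. Of 142 such cells with Gata3, 83 had Ikzf2 (58.5%, 49.9 to 66.7) and 78 had Klrg1 (54.9%, 46.4 to 63.3), against 28 (33.3%, 23.4 to 44.5) and 22 (26.2%, 17.2 to 36.9) of the 84 without Gata3, at median depths of 1330.5 and 1158 counts.

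The same split by Gzmb was made among cells with 0 counts of Foxp3, which share no cell with the comparison above. There the 79 Foxp3- Gzmb+ cells differed from the 639 Foxp3- Gzmb- cells by at least 1.5-fold in 1295 of 3469 genes (37.3%), 581 (16.7%) higher and 714 (20.6%) lower. Markers of other cell types differed with this split. Epithelial markers summed to 83.3 CPM in Foxp3- Gzmb+ cells and 3116 CPM in Foxp3- Gzmb- cells, with all 9 measured genes at least 1.5-fold lower. Myeloid markers summed to 25.0 CPM in Foxp3- Gzmb+ cells and 464 CPM in Foxp3- Gzmb- cells (4 of 5 lower), and stromal and endothelial markers to 108 and 786 CPM (5 of 8 lower). Without the 1 Foxp3- Gzmb+ cell and 24 Foxp3- Gzmb- cells that had at least 3 such or B genes, an alternative chosen after seeing the data, 1136 of 3181 genes (35.7%) differed by at least 1.5-fold. Il10 stood at 1591 CPM in Foxp3- Gzmb+ cells and 211 CPM in Foxp3- Gzmb- cells (2.91, 2.62 to 3.21), and Ccr2 at 1199 and 420 CPM (1.51, 1.23 to 1.79). These lie on the same side of 0 as in members. Areg lay on the other side, at 233 CPM in Foxp3- Gzmb+ cells and 126 CPM in Foxp3- Gzmb- cells (0.89, 0.24 to 1.5), and so did Il1rl1 (1.27, 0.41 to 2.05) and Penk (1.43, 0.54 to 2.26). Without the cells with other markers the log2 ratios were 2.81 for Il10, 1.41 for Ccr2, 0.82 for Areg, 1.13 for Il1rl1 and 1.45 for Penk. The Treg core signature had 13 of 22 genes at least 1.5-fold higher and 0 lower there (median 0.76), where 44.8% of 6384 genes differed that much, 19.8% higher and 25.0% lower. Whether these differences between the Foxp3+ and Foxp3- splits exceed the spread between mice was not tested.

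Members were then set against the Foxp3- Gzmb+ cells. Of 961 genes with at least 50 counts over both, 162 (16.9%) differed by at least 1.5-fold, 95 (9.89%) higher in members and 67 (6.97%) lower. With a minimum of 20 counts it was 939 of 2634 genes (35.6%), 19.2% higher and 16.4% lower. The Treg core signature was close in sum, at 11525 CPM in members and 10876 CPM in Foxp3- Gzmb+ cells (0.08, -0.02 to 0.19). Of its 17 measured genes, 2 were at least 1.5-fold higher in members and 1 lower. Ikzf2 was higher in members, at 926 CPM against 483 CPM in Foxp3- Gzmb+ cells (0.94, 0.50 to 1.40), as were Capg (0.93, 0.42 to 1.47) and S100a6 (0.30, 0.08 to 0.52). Il10 was lower in members (-0.35, -0.64 to -0.07), as were Areg (-1.53, -2.56 to -0.55), Ccr1 (-1.14, -2.05 to -0.25) and Il1rl1 (-1.53, -2.86 to -0.30). The Gata3 and repair list as a whole was close in sum (0.03, -0.14 to 0.21), with 1 of 8 measured genes at least 1.5-fold higher and 2 lower. Ccr2 stood at 1232 CPM in members and 1199 CPM in Foxp3- Gzmb+ cells (0.04, -0.27 to 0.35), and Ctla4 at 2164 CPM in members and 2015 CPM in Foxp3- Gzmb+ cells (0.10, -0.13 to 0.34). A cell with 0 counts of Foxp3 at these depths may still express it, since Foxp3 was at a median of 2 counts where it was detected.

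**Figure D5:**
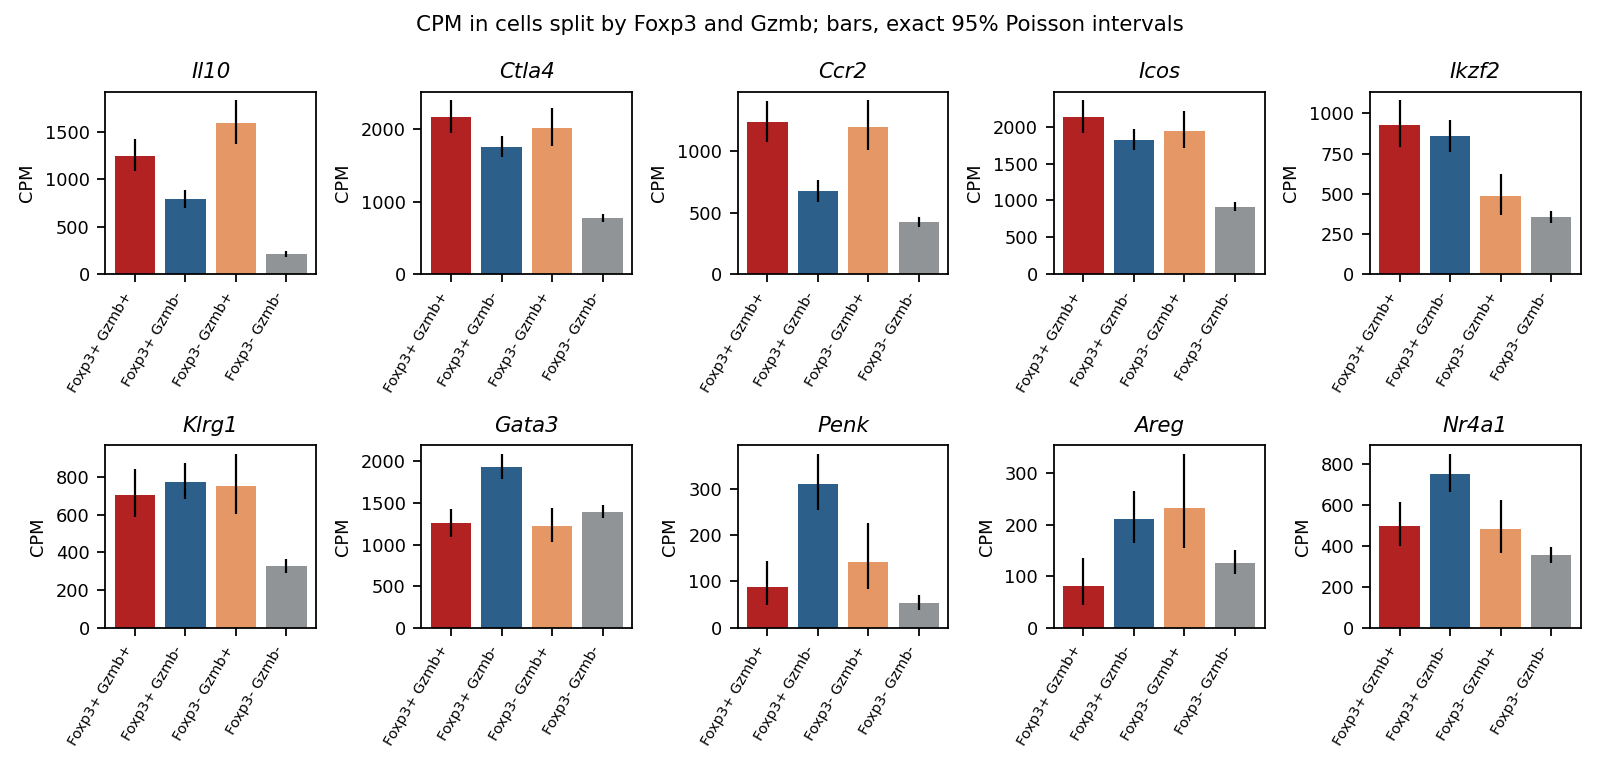
CPM with exact 95% Poisson intervals of named genes in members, Foxp3+ Gzmb-, Foxp3- Gzmb+ and Foxp3- Gzmb- cells. Il10 stands at 1244 CPM in members, 790 CPM in Foxp3+ Gzmb- cells, 1591 CPM in Foxp3- Gzmb+ cells and 211 CPM in Foxp3- Gzmb- cells, and Gata3 is highest, at 1937 CPM, in Foxp3+ Gzmb- cells.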

How the data were processed

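Sorted colon CD4+ T cells of 4 samples in 1 group were profiled by inDrops, and the authors deposited counts of each gene for each barcode, in 1 table. TopHat2, SAMtools and the mm10 build are named in the submitters' processing notes, without versions or roles. Which counter, annotation, barcode filter or collapse of molecular identifiers was used is not given in the sources used here. Each kept cell was assigned by Foxp3 and Gzmb counts and summed with its gate (Python 3.11.15, pandas 2.3.3). CPM carry exact Poisson intervals, shares exact Clopper-Pearson intervals and log2 ratios exact conditional intervals (scipy 1.17.1). No test across samples was possible, as the barcodes carry no sample. The planned calculation was checked on simulated Poisson counts without spread between cells other than depth. The check therefore cannot show how the intervals behave where cells differ. For a ratio, 0 counts on a side became a floor of 3.

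Genes with at least 50 counts over both sides entered a comparison (20 for lists), and 1.5-fold either way was the call. Genes were named by a rule: the 12 highest and 12 lowest ratios with at least 50 counts, at least 10 cells on the higher side and an interval that leaves out 0, up to 4 per list by distance of the nearer bound from 0, and the 11 genes followed for co-detection. Rule, ribosomal, mitochondrial, receptor segment, immunoglobulin and predicted genes were left out; other genes printed are list members named after their values were seen. Doublets called by Scrublet (scanpy 1.11.5; 9 of 1050 cells, 0.857%) were kept, since the rule keeps them, and left out as an alternative. Further alternatives capped counts at 1 per cell and gene, thinned each cell to 500 counts, weighted cells equally and changed the minimums, totals and gates. Positions are from GENCODE vM21 on mm10, which matched 25033 of 25724 symbols (97.3%). The members, gene lists and tests were chosen with earlier results of these data known. Some genes are not reported here.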

Additional observations from a re-analysis of the deposited data

How the results depend on the processing

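These results rest on 1 table without replicates, at a median of 1235.5 counts per kept cell, so genes of few counts and the spread between mice limit them. The share of members among Foxp3+ cells, 31.9%, was 23% after thinning to 500 counts and 21.4% with at least 2 counts of Gzmb. The number of genes past 1.5-fold between members and Foxp3+ Gzmb- cells, 372, was 62 with capped counts, 68 thinned, 173 with at least 2 counts of Foxp3, and 1455, 84 and 4758 with a minimum of 20, of 100 and of no counts. Between Foxp3- Gzmb+ and Foxp3- Gzmb- cells it was 1295, against 572 capped, 378 thinned, and 2861, 480 and 4830 by minimum. Between members and Foxp3- Gzmb+ cells it was 162, against 10 capped, 19 thinned, 105 with at least 2 counts of Gzmb, and 939, 32 and 3852 by minimum. Fewer genes reach the minimum in capped and thinned counts by construction. Of 80 named genes whose interval left out 0, 21 kept that with capped counts, 31 thinned, 79 without doublets and 71 without cells with other markers. Direction turned with capped counts for Lgals1 (-0.0067), Jun (0.051), Uqcrb (-0.16), B2m (-0.15) and H2-K1 (-0.084), after thinning for Tshz1 (0.87), Nkg7 (-0.023), Nt5e (0.36) and Fos (0.032), and with at least 2 counts of Foxp3 for Ikzf4 (0.0079); the cause was not tested. List medians ran from 0.42 to 0.86 for chemokine receptors, 0.11 to 0.47 for S100, annexin and galectin genes, -0.81 to -0.21 for Gata3 and repair genes and -0.61 to -0.27 for receptor-induced genes, including minimums of 50 and 10 counts and the cell of most counts left out on each side, all chosen after seeing the data. No paired analysis was possible because the barcodes carry no sample, and for the same reason no sample was left out in turn.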

Other observations

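Genes of cell division and of cell metabolism were described only as counts. Of 13 measured cell cycle genes, 5 were at least 1.5-fold higher in members and 0 lower (median 0.43, and 0.15 with capped counts). Birc5, a mitotic regulator gene, had 15 counts in 5 members, of which 1 cell gave 46.7%, and 5 counts in 3 Foxp3+ Gzmb- cells (2.57, 1.04 to 4.38), and Hmgb2, a chromatin protein gene of dividing cells, stood at 526 CPM in members and 290 CPM in Foxp3+ Gzmb- cells (0.86, 0.44 to 1.29). Nuclear genes of oxidative phosphorylation had a median of 0.20, with 15 of 20 above 0, 3 at least 1.5-fold higher and 1 lower. Interferon-response genes had a median of 0.28 with 4 of 12 higher and 1 lower, class I presentation genes 0.12 with 0 of 14 higher and 1 lower, glycolysis genes -0.05 with 0 of 12 higher and 1 lower, and lipid and cholesterol genes 0.31 with 3 of 8 higher and 2 lower (-0.64 with capped counts).

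Cytokine-receptor genes had a median of 0.02 over 17 measured genes, with 3 at least 1.5-fold higher and 2 lower. Il4ra, the shared receptor chain for IL-4 and IL-13, had 27 counts in 13 members and 19 counts in 13 Foxp3+ Gzmb- cells (1.49, 0.59 to 2.42). Stat5b, which carries IL-2 signals, had 10 counts in 10 members and 49 counts in 34 Foxp3+ Gzmb- cells (-1.31, -2.46 to -0.31). Th1 genes had a median of -0.02 over 5 genes (1 higher, 1 lower), Th2 genes -0.32 over 4 (1 higher, 2 lower), naive T cell genes -0.04 over 7 (0 higher, 1 lower), and matrix proteases and their inhibitors 0.36 over 6 (2 higher, 1 lower). Tbx21, the Th1 factor gene, had 3 counts in members and 5 in Foxp3+ Gzmb- cells.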
